A study of Mus musculus with 74 samples.

Results

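The mitosis genes are 40 genes whose products switch a cell into mitosis, build the spindle, hold and separate the chromosomes and divide the cell. They were given as a list of names, drawn up with earlier results of these data known, and no threshold on their levels was applied. All 40 have a line in the table of 30323 genes, and they were followed over all 74 single cells of the series. The cells came from the pro-epicardial organ of mouse embryos of strain C57BL/6 at embryonic day 9.5. Every embryo carried Tbx18Cre;mTmG, in which Cre recombinase driven by Tbx18 switches a membrane reporter from red to green. The green mark records that a cell or its ancestors expressed Tbx18, so cells without that history lay outside the sort, and a marked cell need not express Tbx18 when collected. Single cells were sorted by flow cytometry and their polyadenylated RNA was amplified over its full length. There was no treatment, mutant or control, and the labels tie no cell to an embryo or litter. The 74 cells are therefore 1 sample, no test between cells was made, and each error is an SD over cells or an exact (Clopper-Pearson) 95% interval for the counting of cells.

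The comparisons rest on 3 states of cell, defined by genes outside the 40. A cell with Actc1 (cardiac actin) at 5000 CPM or more was called muscle-like, which held for 9 cells. CPM are the counts of a gene scaled by the total of its cell. A cell below that level with 5 or more counts of Lhx9, a LIM homeobox factor of the mesothelium, was called Lhx9-positive, which held for 34 cells. The remaining 31 are the other cells, and no cell passed both thresholds. The lowest Actc1 level inside the muscle-like state was 8840 CPM and the highest outside it was 4759 CPM. The lowest Lhx9 count inside the Lhx9-positive state was 15 and the highest outside it was 2.

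Marker genes were read in each state. Tbx18 was detected, at 5 or more counts, in 34 of 34 Lhx9-positive, 6 of 9 muscle-like and 29 of 31 other cells. The epicardial factor Wt1 was detected in 33 Lhx9-positive, 2 muscle-like and 25 other cells, and the epicardial factor Tcf21 in 34 Lhx9-positive, 2 muscle-like and 27 other cells. The remaining epicardial markers read set Lhx9-positive further apart from other cells. Bnc1 was detected in 32 Lhx9-positive, 2 muscle-like and 9 other cells, and Lrrn4 in 31, 0 and 16. In the same order Upk1b was detected in 28, 2 and 3 cells, Upk3b in 30, 1 and 3, and Podxl in 33, 8 and 16. The summed level of 9 cardiomyocyte genes spanned 439 to 6613 CPM in Lhx9-positive cells and 581 to 13017 CPM in other cells. In muscle-like cells it spanned 19316 to 65329 CPM. Actc1, which defines that state, is 1 of the 9 genes, so part of this separation was set by the rule. Muscle RNA was also present outside the muscle-like state, at a lower level. Endothelial Cdh5 and Emcn and hepatic Afp and Hnf4a were detected in 0 of 74 cells. The other endothelial markers read, Pecam1, Tek and Kdr, were detected in 62, 52 and 8 cells. The other hepatic markers read, Alb and Ttr, were detected in 20 and 7 cells. Median total counts were 810674 in Lhx9-positive, 808142 in muscle-like and 994986 in other cells, within an overall range of 216177 to 2618538. The median number of genes with at least 1 count was 9561 in Lhx9-positive, 9084 in muscle-like and 9235 in other cells.

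Entry into mitosis is driven by the kinase Cdk1 bound to cyclins A and B, and exit by the anaphase-promoting complex, which marks the cyclins and securin for destruction. The transcripts of these genes are scarce in G1, accumulate through S and G2 phase and are highest around mitosis. Their promoters are known for a short element at the start site, the cell cycle genes homology region (CHR), often near CCAAT boxes, through which repressor and activator complexes act in turn. The pro-epicardial organ is a transient outgrowth of mesothelium by the inflow of the looping heart, and it supplies the cells of the epicardium.

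The promoters of 6 members are shown because they display the letters that most members share at the start site, and, in Pttg1, a member promoter without them. Each line gives the 120 bases before the RefSeq start of the gene (build GRCm38.p6), 5′ to 3′ on the strand of the gene. Capitals mark 3 motifs. The CHR element reads TTTGAA, and where it lies on the opposite strand it appears as TTCAAA. Its variant, which reads the same on either strand, is TTCGAA. The CCAAT box appears as ATTGG where it lies on the opposite strand. The regions are chr10:69352913-69353032 on the minus strand for Cdk1, chr4:118437344-118437463 on the minus strand for Cdc20 and chr2:164769809-164769928 on the plus strand for Ube2c. They are chr11:99024190-99024309 on the minus strand for Top2a, chr19:37376262-37376381 on the plus strand for Kif11 and chr11:43425982-43426101 on the minus strand for Pttg1.
Cdk1: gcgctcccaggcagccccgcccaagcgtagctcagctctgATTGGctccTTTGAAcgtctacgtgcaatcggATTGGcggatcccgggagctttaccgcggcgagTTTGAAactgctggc
Cdc20: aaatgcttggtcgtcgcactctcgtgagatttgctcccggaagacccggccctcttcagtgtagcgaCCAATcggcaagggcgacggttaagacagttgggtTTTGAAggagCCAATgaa
Ube2c: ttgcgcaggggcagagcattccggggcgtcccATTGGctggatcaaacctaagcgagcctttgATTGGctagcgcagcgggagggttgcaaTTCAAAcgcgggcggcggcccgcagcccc
Top2a: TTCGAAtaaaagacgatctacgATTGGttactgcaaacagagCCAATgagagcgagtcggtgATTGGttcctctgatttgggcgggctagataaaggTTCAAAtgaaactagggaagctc
Kif11: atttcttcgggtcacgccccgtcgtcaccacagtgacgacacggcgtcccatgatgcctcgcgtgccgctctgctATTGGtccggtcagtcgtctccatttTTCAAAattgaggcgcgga
Pttg1: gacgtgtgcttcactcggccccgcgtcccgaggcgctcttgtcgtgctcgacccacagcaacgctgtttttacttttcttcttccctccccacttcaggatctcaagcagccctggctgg

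A RefSeq promoter reaching from 250 bases before to 50 bases after the start was at hand for 34 of the 40 members. Both strands were searched. The CHR element TTTGAA was found in 26 of these 34 (76.5%), against 20.2% of all 27025 genes with a promoter and 14.0% of the genes with a promoter that passed the filter on low counts described below. The CCAAT box was also found in 26 of 34 (76.5%), against 41.1% of all genes. Both together were found in 23 of 34 (67.6%), against 7.97% of all genes. The variant TTCGAA was found in 3 of 34 (8.82%), against 1.80% of all genes. The E2F elements TTTCCCGC and TTTGGCGC were each found in 0 of 34 member promoters, against 1.24% and 0.585% of all genes. The CHR element nearest to the start lay between 103 bases before and 41 bases after it, and within 50 bases of it in 23 of the 26 promoters. Birc5, Bub1, Ccnb1, Cenpe, Nuf2, Nusap1, Pttg1 and Tacc3 had no match to TTTGAA in this window, and Birc5, Nuf2, Nusap1, Pttg1 and Tacc3 had no CCAAT box either. The median log2 ratio of muscle-like over other cells, described below, was -2.01 for the 26 members with TTTGAA and -1.77 for the 8 without. A match describes letters in a window and is not a measured binding site. The S-phase genes listed further on held TTTGAA in 3 of 17 promoters (17.6%), the CCAAT box in 12 of 17 (70.6%), and the E2F elements TTTCCCGC in 17.6% and TTTGGCGC in 23.5%. A high share with TTTGAA was not particular to the members. Further G2 and mitosis genes, also listed below, held it in 17 of 28 promoters (60.7%) and the CCAAT box in 20 of 28 (71.4%). They held both in 14 of 28 (50.0%).

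All 40 members were detected in these cells, each in 39 to 73 of the 74, and all passed the filter of 5 or more counts in at least 10% of cells. The median member was detected in 54 cells, equal to the median of the 11511 genes that passed the filter. Together the 40 genes took between 0.0265% and 1.77% of a cell's counts, with a median of 0.460%. Their summed level thus spread far more widely between cells than total counts did. The lowest number of members detected in a cell was 5 and the highest 40.

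Cells were not spread evenly over that scale. Of 74 cells, 46 (62.2%, interval 50.1 to 73.2) had 30 to 40 members detected, and 35 of these had 38 or more. At the low end 15 cells (20.3%, interval 11.8 to 31.2) had 10 to 19 members and 4 cells (5.41%, interval 1.49 to 13.3) had 0 to 9. The range between them, 20 to 29 members, held 9 cells (12.2%, interval 5.71 to 21.8). These ranges are levels and not cell types, and 6 cells lay within 18 to 21 members, around the threshold of 20 used below. The median summed level of the 40 genes was 401 CPM in cells with 0 to 9 members, 598 CPM with 10 to 19, 2804 CPM with 20 to 29 and 7610 CPM with 30 to 40. Median total counts in the same ranges were 1047260, 755938, 866552 and 862850, so cells with few members detected were not uniformly the shallow ones. Over 74 cells the list level, which is the mean of log2(CPM + 1) over the 40 members, had a Spearman correlation of 0.08 with total counts and 0.39 with the number of genes with a count. Level, depth and gene number come from the same library in each cell.

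**Figure D1:**
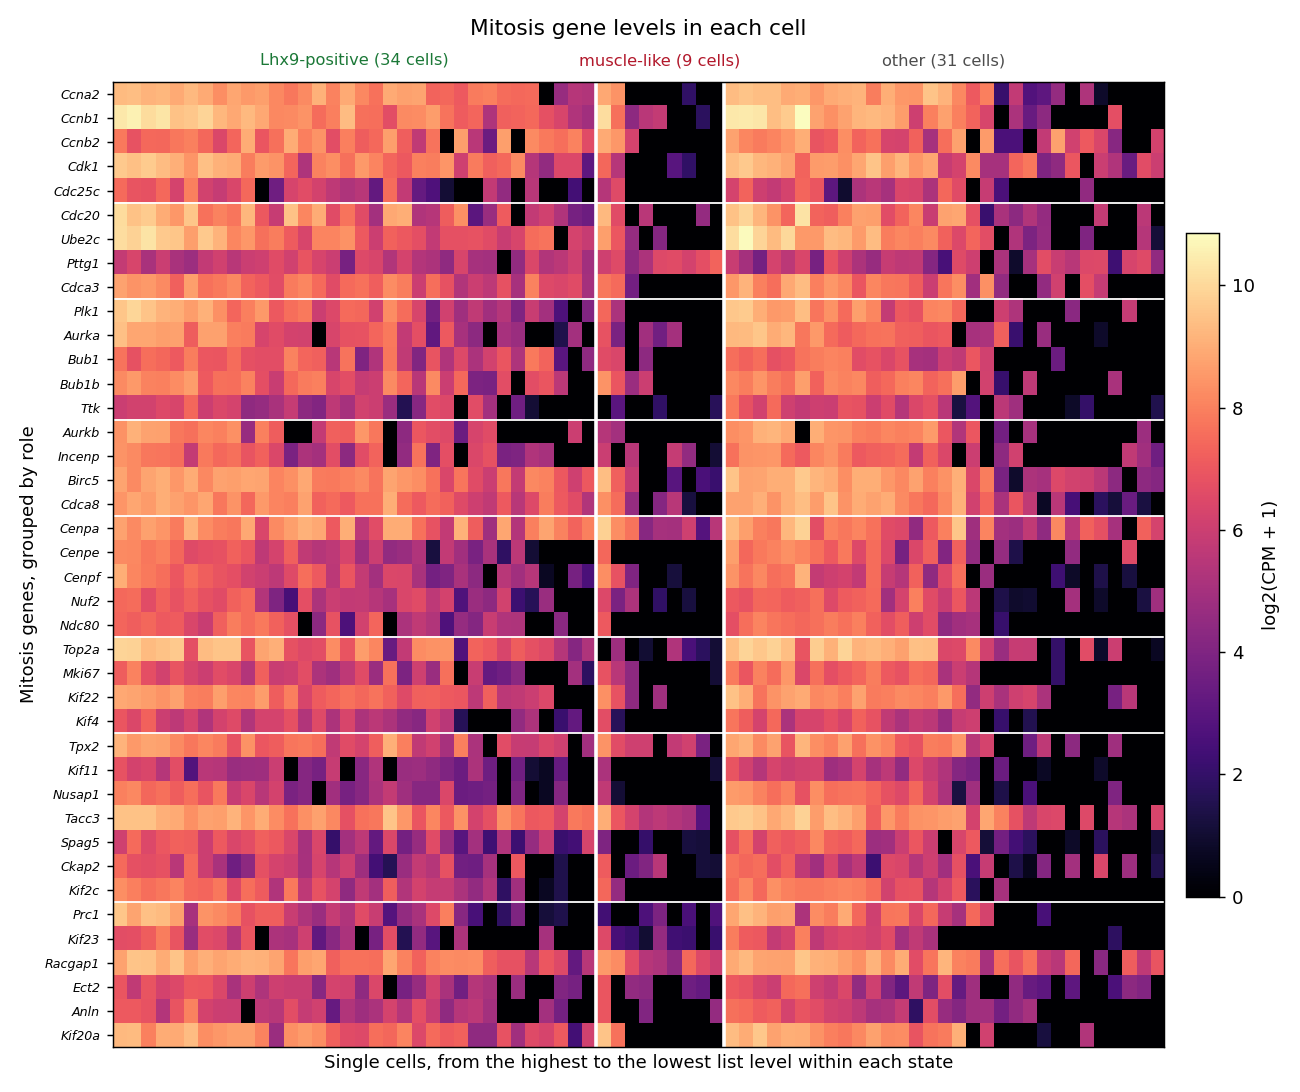
Level of each of the 40 mitosis genes (rows, grouped by role) in each of 74 cells (columns), as log2(CPM + 1) on a colour scale from 0 in black. Cells stand in their state, Lhx9-positive (34), muscle-like (9) and other (31), from the highest to the lowest list level: most members are bright across the left of the Lhx9-positive and other blocks and dark in most muscle-like cells, while Pttg1, Racgap1, Cenpa and Tacc3 stay visible in cells where most rows are black.

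Which members remain in cells with few of them was not the same for every gene. In the 4 cells with 0 to 9 members, Cenpa, Pttg1 and Racgap1 were each detected in 4. In the 15 cells with 10 to 19 members Cenpa was detected in 14, Pttg1 in 13, Tacc3 in 13 and Racgap1 in 12. Cenpa is the histone H3 variant that marks the centromere, Pttg1 is securin, Racgap1 is a GTPase-activating protein of the central spindle and Tacc3 steadies spindle microtubules. The opposite case was 4 motor and kinetochore genes, Kif11, Kif2c, Kif4 and Ndc80, each detected in 0 of these 4 and 0 of these 15 cells. In the 46 cells with 30 to 40 members Kif11 was detected in 42 and Cenpa in 46. The rows compared here helped to place the cells in their ranges, so these counts only describe which members fill the low ranges.

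By state, 20 or more members were detected in 32 of 34 Lhx9-positive cells (94.1%, interval 80.3 to 99.3), 2 of 9 muscle-like cells (22.2%, interval 2.81 to 60.0) and 21 of 31 other cells (67.7%, interval 48.6 to 83.3). The number of members detected ran from 14 to 40 with a median of 38 in Lhx9-positive cells, from 5 to 37 with a median of 11 in muscle-like cells and from 9 to 40 with a median of 37 in other cells. Counts were also drawn down at random to 354002 per cell, a total that 8 cells (5 Lhx9-positive, 1 muscle-like and 2 other) did not reach. The shares were then 93.1% of 29 Lhx9-positive, 25.0% of 8 muscle-like and 62.1% of 29 other cells.

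**Figure D2:**
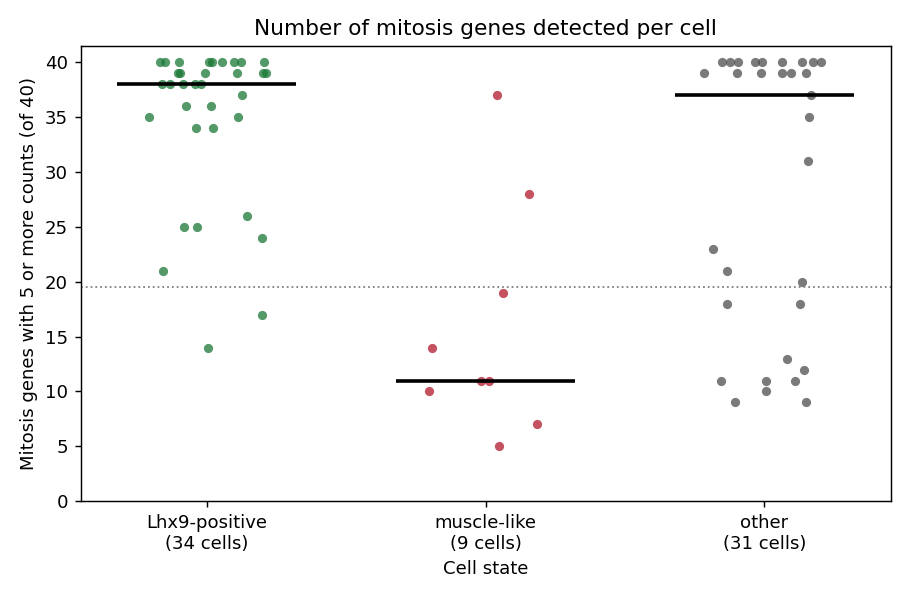
Number of the 40 mitosis genes detected at 5 or more counts (y axis) in each cell (points), by state, with the median as a black bar and a dotted line below 20. Lhx9-positive cells span 14 to 40, muscle-like cells 5 to 37 and other cells 9 to 40, and the other cells fall into a group of 31 or more and a group of 23 or fewer.

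Levels between members were compared per length, as mean CPM per kilobase of the longest protein-coding transcript. Cenpa was the most abundant at 170 CPM per kilobase, followed by cyclin B1 gene Ccnb1 at 153, Cdca8 at 137, and Cdc20 and Ube2c at 132 each. The lowest were Kif11 at 5.54, the proliferation marker Mki67 at 7.14, Cenpf at 7.79 and Kif4 at 9.00 CPM per kilobase. Levels per kilobase depend on the transcript chosen for the length.

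In the cyclins and the switch of Cdk1, comprising Ccna2, Ccnb1, Ccnb2, Cdk1 and the activating phosphatase gene Cdc25c, members were detected in 41 to 66 cells. Cdk1 was the most often detected of them, at 7.77, 258 and 840 CPM (lowest, median and highest) in Lhx9-positive cells, 0, 0 and 169 CPM in muscle-like cells and 0, 223 and 813 CPM in other cells. The median muscle-like cell thus held no Cdk1 count, whereas every Lhx9-positive cell had some. Cdc25c was the least often detected, at 0, 47.2 and 253 CPM in Lhx9-positive cells, 0, 0 and 91.8 CPM in muscle-like cells and 0, 32.0 and 169 CPM in other cells. Its ranges overlap in all 3 states. The highest single level among all members was that of Ccnb1, 1860 CPM in an other cell, and Ccnb1 reached 1544 CPM in a Lhx9-positive cell and 1117 CPM in a muscle-like cell. The table also lists pseudogene copies of Ccnb1 and Ccnb2, with at most 3 counts in any cell for Ccnb1-ps and at most 10 for Ccnb2-ps. Reads could be shared between copy and gene, so the levels of Ccnb1 and Ccnb2 are uncertain. The counts given to the copies do not measure how uncertain, and copies not named after a member were not searched for.

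Destruction by the anaphase-promoting complex was represented by its activator Cdc20, its ubiquitin-conjugating enzyme Ube2c, its substrate Pttg1, the inhibitor of separase, and Cdca3, a trigger of mitotic entry. Cdc20 was the least often detected of the 4, in 59 cells, at 0, 171 and 1070 CPM in Lhx9-positive cells, 0, 0 and 612 CPM in muscle-like cells and 0, 108 and 1201 CPM in other cells. Pttg1 was the most often detected, in 69 cells. Its levels were 0, 53.6 and 119 CPM in Lhx9-positive cells, 20.2, 90.9 and 158 CPM in muscle-like cells and 0, 49.4 and 116 CPM in other cells. Pttg1 was detected in 9 of 9 muscle-like cells, and the ranges of all 3 states overlap.

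Among the mitotic kinases and the spindle checkpoint, Plk1 and Aurka drive centrosome maturation and spindle assembly, and Bub1, Bub1b and Ttk (Mps1) hold anaphase until the chromosomes are attached. Bub1 and Bub1b were each detected in 55 cells. Bub1 lay at 0, 115 and 264 CPM in Lhx9-positive cells, 0, 0 and 96.8 CPM in muscle-like cells and 0, 63.3 and 273 CPM in other cells. Bub1b lay at 0, 128 and 393 CPM in Lhx9-positive cells, 0, 0 and 342 CPM in muscle-like cells and 0, 153 and 405 CPM in other cells. Both were at 0 in the median muscle-like cell, and their ranges overlap in all 3 states. Ttk was the least often detected kinase, in 45 cells, at 0, 32.5 and 167 CPM in Lhx9-positive cells, 0, 0 and 6.89 CPM in muscle-like cells and 0, 45.9 and 223 CPM in other cells. Only 1 of 9 muscle-like cells reached the 5 counts needed to call Ttk detected.

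The chromosomal passenger complex consists of the kinase Aurkb, its scaffold Incenp, survivin (Birc5) and borealin (Cdca8), and corrects faulty attachments before it moves to the midzone. Birc5 was detected in 67 cells, at 54.4, 287 and 510 CPM in Lhx9-positive cells, 0, 4.95 and 680 CPM in muscle-like cells and 0, 287 and 813 CPM in other cells. Aurkb was detected in 47 cells, at 0, 98.2 and 543 CPM in Lhx9-positive cells, 0, 0 and 41.2 CPM in muscle-like cells and 0, 123 and 577 CPM in other cells. The 4 subunits were thus not detected equally often, and the kinase was found in fewer cells than the subunit that docks it on chromatin.

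Of the kinetochore genes, Cenpa lays down the centromere, Ndc80 and Nuf2 form part of the complex that grips microtubules, and Cenpe and Cenpf are a motor and a large protein of the outer kinetochore. Cenpa was detected in 73 cells, more than any other member, at 28.0, 277 and 560 CPM in Lhx9-positive cells, 6.19, 44.3 and 909 CPM in muscle-like cells and 0, 152 and 933 CPM in other cells. Ndc80 was detected in 47 cells, at 0, 55.2 and 237 CPM in Lhx9-positive cells, 0, 0 and 134 CPM in muscle-like cells and 0, 32.7 and 266 CPM in other cells. A single muscle-like cell had Ndc80 detected.

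For the structure and movement of chromosomes, Top2a untangles sister DNA, Mki67 coats mitotic chromosomes, and Kif22 and Kif4 are chromosome-bound motors. Top2a and Kif22 were each detected in 60 cells. Top2a (ENSMUSG00000020914, chr11:98992943-99024189, minus strand, GRCm38) lay at 5.60, 151 and 954 CPM in Lhx9-positive cells, 0, 1.14 and 38.4 CPM in muscle-like cells and 0, 119 and 972 CPM in other cells. Kif22 lay at 0, 155 and 472 CPM in Lhx9-positive cells, 0, 0 and 319 CPM in muscle-like cells and 0, 206 and 711 CPM in other cells. Top2a therefore stayed low in all muscle-like cells, while 1 of them had much Kif22. Kif4, an X-linked gene and the least often detected of the 4, lay at 0, 38.8 and 152 CPM in Lhx9-positive cells, 0, 0 and 101 CPM in muscle-like cells and 0, 34.8 and 213 CPM in other cells.

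The 7 spindle genes are the microtubule binders Tpx2, Nusap1, Tacc3, Spag5 and Ckap2, the motor Kif11 (Eg5), which pushes the poles apart, and the depolymerase Kif2c (MCAK). Tacc3 was detected in 70 cells, at 73.2, 310 and 740 CPM in Lhx9-positive cells, 0, 40.6 and 513 CPM in muscle-like cells and 0, 335 and 929 CPM in other cells. Kif11 was detected in 44 cells, at 0, 19.2 and 115 CPM in Lhx9-positive cells, 0, 0 and 35.0 CPM in muscle-like cells and 0, 22.2 and 118 CPM in other cells. Kif11 was also the lowest of the 40 in mean level per length.

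The cytokinesis genes are Prc1, which bundles the central spindle, Kif23 and Racgap1, which form centralspindlin, the exchange factor Ect2, the scaffold anillin (Anln) and the motor Kif20a. Racgap1 was detected in 71 cells, at 8.43, 300.3 and 743 CPM in Lhx9-positive cells, 19.8, 90.3 and 369 CPM in muscle-like cells and 0, 232 and 748 CPM in other cells. Its partner Kif23 was detected in 39 cells, the fewest of the 40, at 0, 23.3 and 241 CPM in Lhx9-positive cells, 0, 3.52 and 90.7 CPM in muscle-like cells and 0, 2.55 and 253 CPM in other cells. The 2 centralspindlin subunits thus stood at opposite ends of detection within this list.

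Lhx9-positive and other cells were then compared as states, to ask whether the mesothelial cells marked by Lhx9 carry more or less mitotic RNA. With a difference counted when the ratio of (mean CPM + 1) was at least 2-fold, 0 of 40 members were higher in Lhx9-positive cells, where 4.57% of all 11511 genes were, and 0 were lower, where 7.04% of all genes were. The median log2 ratio of the members was -0.02, against -0.06 for all genes, and the members ran from -0.64 to 0.48. Bub1, Cenpa and Cdc25c had the highest ratios. Bub1 averaged 114 ± 75.3 CPM in Lhx9-positive cells and 81.8 ± 87.4 CPM in other cells (SD over cells, n = 34 and 31, log2 ratio 0.48). Cenpa had a log2 ratio of 0.46 and Cdc25c of 0.45. Nusap1, Mki67 and Cenpe had the lowest.

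Nusap1 lay at 0, 22.9 and 288 CPM in Lhx9-positive cells and 0, 34.8 and 383 CPM in other cells, and averaged 65.7 ± 82.1 CPM in Lhx9-positive cells and 103 ± 121 CPM in other cells (log2 ratio -0.64). Mki67 lay at 0, 59.2 and 266 CPM in Lhx9-positive cells and 0, 60.6 and 361 CPM in other cells (log2 ratio -0.41). Cenpe lay at 0, 49.2 and 294 CPM in Lhx9-positive cells and 0, 85.7 and 407 CPM in other cells (log2 ratio -0.38). For each of these genes the difference of means was smaller than the SD over cells of either state.

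The list level, in contrast, averaged 6.06 ± 1.52 in Lhx9-positive cells and 5.09 ± 2.74 in other cells on the log2(CPM + 1) scale (SD, n = 34 and 31), a difference of 0.97. It was 0.46 with 10 CPM added in place of 1, and 0.62 with the Lhx9 threshold at 1 count. The medians lay in the opposite order, at 6.29 in Lhx9-positive cells and 6.38 in other cells. A mean of logs weighs cells with almost no mitotic RNA more than a mean of CPM does. Such low cells, with fewer than 20 members, numbered 2 in the Lhx9-positive state, both with 10 to 19 members. In the other cells 8 had 10 to 19 members and 2 had 0 to 9. In the upper range, 30 to 40 members, were 27 of 34 Lhx9-positive cells (79.4%, interval 62.1 to 91.3) and 18 of 31 other cells (58.1%, interval 39.1 to 75.5). Epicardial marker RNA moved with the same states, its summed median being 2307 CPM in Lhx9-positive cells and 456 CPM in other cells, and its part in the difference was not tested.

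Muscle-like cells had lower levels of nearly every member. At 2-fold, 0 of 40 members were higher in muscle-like than in other cells, where 7.37% of all genes were, and 36 of 40 were lower, where 16.4% of all genes were. The median log2 ratio of the members was -1.91, against -0.18 for all genes, and 6.22% of all genes lay below the members' median. The list level averaged 2.46 ± 2.04 in muscle-like cells and 5.09 ± 2.74 in other cells (SD, n = 9 and 31), a difference of -2.62, or -1.62 with 10 CPM added in place of 1. The 4 members between the 2-fold limits were Cenpf (log2 ratio -0.86), Ccnb2 (-0.71), Cenpa (-0.26) and Pttg1 (0.71). By role, every member of the checkpoint kinases (5 of 5), the passenger complex (4 of 4), chromosome structure (4 of 4), the spindle (7 of 7) and cytokinesis (6 of 6) was at least 2-fold lower. The cyclins and Cdk1 switch had 4 of 5 lower, the destruction group 3 of 4 and the kinetochore 3 of 5.

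**Figure D3:**
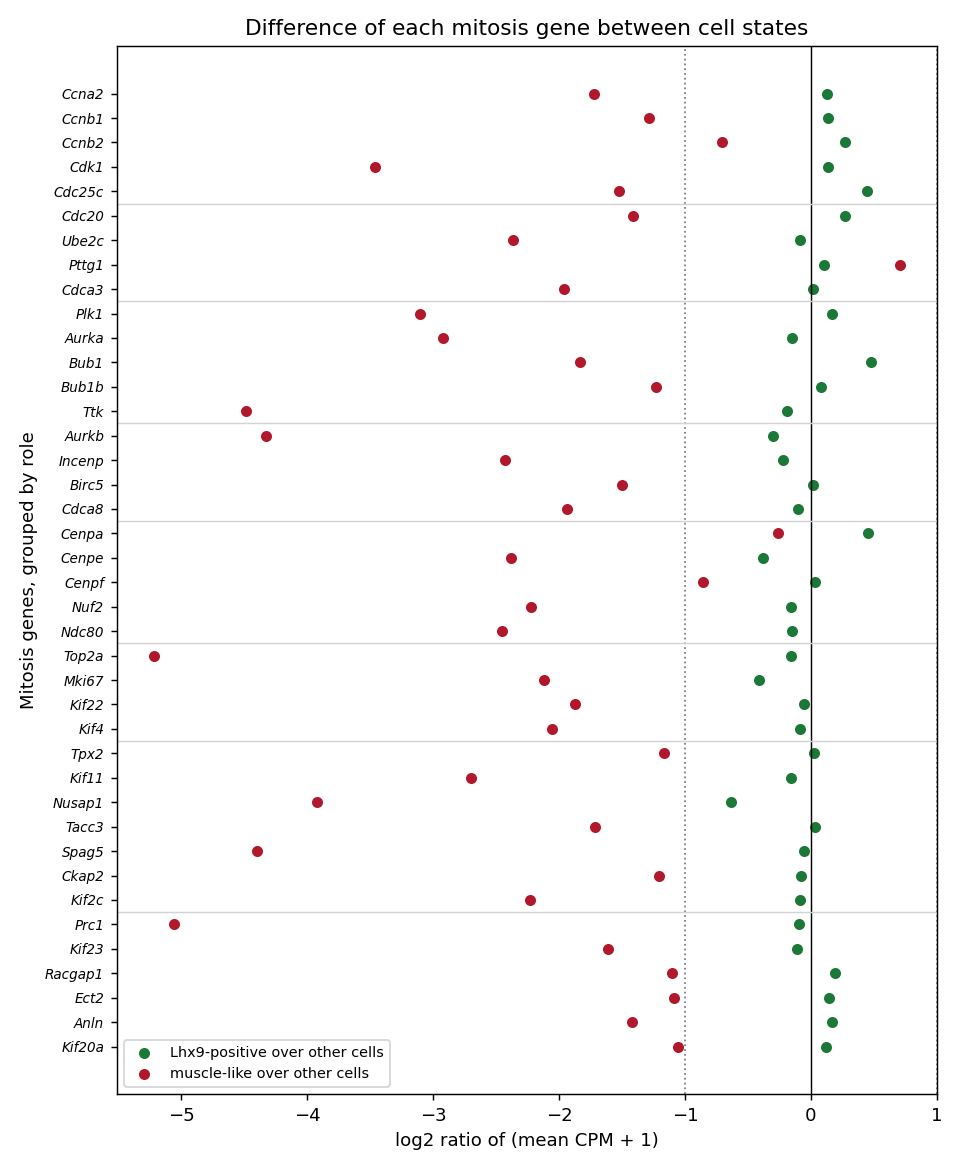
Log2 ratio of (mean CPM + 1) for each of the 40 mitosis genes (rows, grouped by role), for Lhx9-positive over other cells in green and muscle-like over other cells in red, with dotted lines at a 2-fold difference. Green points stay between -0.64 and 0.48, and 36 red points lie beyond the lower line, down to -5.22 for Top2a, with Pttg1 at 0.71.

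The 3 largest differences were those of Top2a, Prc1 and Ttk. Top2a averaged 8.39 ± 14.3 CPM in muscle-like cells and 348 ± 350 CPM in other cells (SD, log2 ratio -5.22). Prc1 (ENSMUSG00000038943, chr7:80294450-80316259, plus strand) lay at 0, 4.12 and 14.2 CPM in muscle-like cells and 0, 67.7 and 700 CPM in other cells, and averaged 3.79 ± 4.65 CPM in muscle-like cells and 159 ± 200 CPM in other cells (log2 ratio -5.06). Ttk averaged 1.33 ± 2.36 CPM in muscle-like cells and 51.2 ± 57.3 CPM in other cells (log2 ratio -4.48). For all 3 genes the highest muscle-like cell stood below the mean of the other cells, and other cells with 0 CPM made the ranges overlap. Spag5 (-4.40), Aurkb (-4.33), Nusap1 (-3.92) and Cdk1 (-3.46) followed in log2 ratio.

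Pttg1 (ENSMUSG00000020415, chr11:43420250-43426251, minus strand) was the 1 member with a higher mean in muscle-like cells, 82.3 ± 40.2 CPM, against 49.9 ± 32.9 CPM in other cells. That difference was smaller than the SD over the muscle-like cells. Cenpa averaged 181 ± 292 CPM in muscle-like cells and 217 ± 229 CPM in other cells. Ccnb2 averaged 102 ± 186 CPM in muscle-like cells and 168 ± 154 CPM in other cells. The SDs of both exceed their differences. In muscle-like cells 1 cell, at 909 CPM, carried much of the Cenpa mean. The Ccnb2 mean rested mostly on that cell, at 484 CPM, and on another at 359 CPM.

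The 9 muscle-like cells were unlike one another. They had 37, 28, 19, 14, 11, 11, 10, 7 and 5 members detected. The cell with 37, of 485301 counts in all, had Ccnb1 at 1117 CPM, Cenpa at 909, Kif20a at 729, Birc5 at 680 and Cdc20 at 612, but Top2a and Ttk at 0 and Prc1 at 4.12 CPM. It was thus high in many members and at or near 0 in the 3 members of largest difference. Its S-phase level, the mean log2(CPM + 1) of the 20 S-phase genes described below, was 4.15, the lowest among the 46 cells with 30 or more members. Its Actc1 level was 20412 CPM. The cell with 28 members had Ccnb2 at 359, Ccna2 at 337 and Cenpa at 310 CPM, with Top2a at 27.5 CPM. In the remaining 7 cells the highest Cdk1 level was 6.61 CPM and Plk1 was at 0.

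Because 1 cell carried much of the muscle-like mean, the comparison was repeated without it, a choice made after the values were seen. Then 39 of 40 members were at least 2-fold lower in muscle-like than in other cells, where 17.4% of all genes were, and 0 were higher, where 7.8% of all genes were. The median log2 ratio was -3.24. Cenpa stood at -1.27, Ccnb2 at -1.61, Cenpf at -2.40 and Kif20a at -3.04 on the log2 scale, and Pttg1 at 0.74. Cenpe, Nusap1 and Ndc80 then had the lowest ratios, at -6.68, -6.50 and -6.44, with a level in the 8 remaining muscle-like cells at or near 0, so these sizes depend on the 1 CPM added.

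Cells of intermediate Actc1 level were read separately. Among 9 cells with 1000 to 5000 CPM of Actc1, the members detected numbered 31, 40, 40, 11, 25, 40, 39, 23 and 18, from the highest to the lowest Actc1. The cell with 25 was Lhx9-positive and the rest were other cells. Cells with intermediate muscle RNA thus included 3 with all 40 members. The Spearman correlation of the list level with Actc1 was -0.37 over the 34 Lhx9-positive cells and 0.18 over the 31 other cells.

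Most of the 40 genes followed the level of the list from cell to cell. Over 74 cells the correlation of each member with the level of the rest of the list had a median Spearman coefficient of 0.85 and was highest for Ube2c at 0.94. For 37 of 40 it was at least 0.69 after rounding, and the exceptions were Cenpa at 0.54, Ccnb2 at 0.51 and Pttg1 at -0.13. The limit of 0.69 is the coefficient of Ckap2, the lowest of these 37, so it was taken from these same values. Of all 11511 genes, the 40 included, 0.773% reached that value with the list level. All points share their cell's library and scaling. Within the 46 cells with 30 or more members, where presence or absence of the whole programme plays less part, the closest pairs were Top2a with Prc1 (0.88), Aurka with Nusap1 (0.87) and Top2a with Aurkb (0.85). The lowest were Ttk with Pttg1 (-0.35) and Top2a with Cenpa (-0.30).

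To read order within the cycle, 8 members whose transcripts are known to rise by S and G2 phase (Top2a, Ccna2, Cdk1, Mki67, Incenp, Tacc3, Kif11 and Kif22) were set against 8 known to peak at G2 and mitosis (Ccnb1, Plk1, Aurka, Cdc20, Cenpa, Cenpe, Bub1 and Kif20a). With at least 4 of 8 genes of a set detected counting as its presence, 56 cells had both sets, 6 had the early set alone, 2 had the late set alone and 10 had neither. In Lhx9-positive cells these numbers were 32, 1, 1 and 0, in muscle-like cells 2, 2, 1 and 4, and in other cells 22, 3, 0 and 6. The levels of the sets had a Spearman correlation of 0.89 over 74 cells and of 0.63 within the 46 cells with 30 or more members. In 0 cells were all 8 early members detected with fewer than 4 late members.

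**Figure D4:**
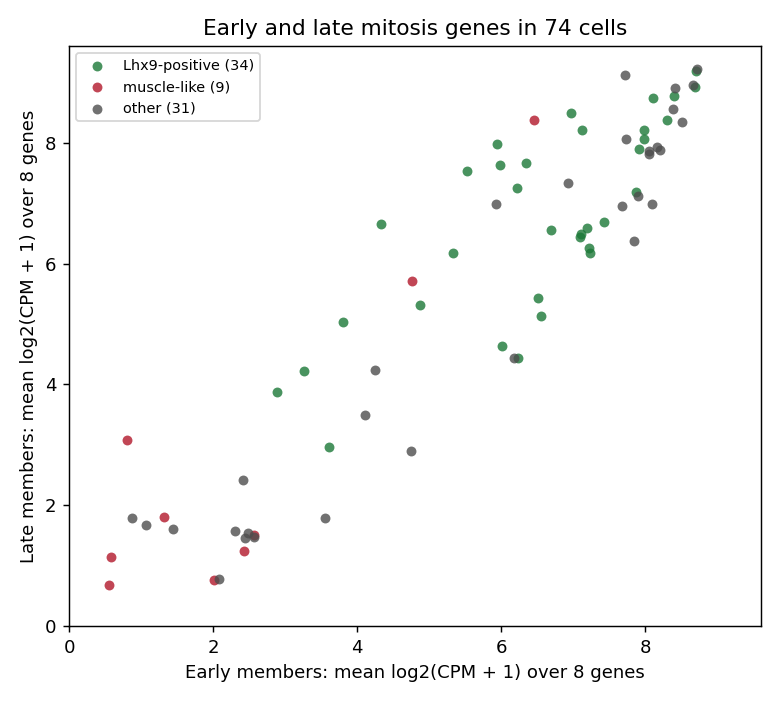
Mean log2(CPM + 1) of the 8 late members (y axis) against that of the 8 early members (x axis) in 74 cells, coloured by state: Lhx9-positive (34), muscle-like (9) and other (31). Points follow the diagonal (Spearman 0.89), with a low group of mostly muscle-like and other cells and a wider upper group of mostly Lhx9-positive and other cells.

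Within the upper group the balance still differed between cells. After each gene was set relative to its own mean, late minus early level ran from -2.07 to 2.05 on the log2 scale over the 46 cells, with a median of -0.19 and an SD of 1.04. It was 1 or more in 8 cells, -1 or less in 9 cells and between these in 29. The division of the sets was only partly borne out gene by gene. Of the early members 5 of 8 correlated better with the rest of the early set, and Ccna2, Kif22 and Tacc3 correlated better with the late set. Of the late members 7 of 8 correlated better with the late set, and Aurka, at 0.82 with the early and 0.71 with the late set, did not. Of the 24 members placed in neither set, 17 had the higher coefficient with the late set and 7 with the early set. The 17 counted Pttg1, which was near neither set (-0.16 with early, -0.06 with late). Nuf2, counted in the 7, was close to a tie (0.64 and 0.63). The 7 included Prc1 (0.86 with early, 0.56 with late), Nusap1 (0.87 and 0.73) and Aurkb (0.86 and 0.39).

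A list of 20 S-phase genes, among which the most abundant per kilobase were Pcna, Mcm7, Rrm2, Slbp and Mcm2, gave another reading of position in the cycle. Pcna is the sliding clamp of DNA polymerase, Mcm7 and Mcm2 are parts of the replicative helicase, Rrm2 is a subunit of ribonucleotide reductase and Slbp binds histone mRNA. Over 74 cells the level of the mitosis list had a correlation of 0.04 with that of the S-phase list. Cells low in mitotic RNA were thus not uniformly low in S-phase RNA. Single S-phase genes differed in sign, such as Rrm2 at 0.36 and Mcm2 at -0.36 with the mitosis level. Within the 46 cells with 30 or more members the late set was lower where the S-phase list was higher, with a Spearman correlation of -0.71 (-0.75 in 27 Lhx9-positive cells, -0.59 in 18 other cells). The early set had -0.29 (-0.27 in 27 Lhx9-positive cells, -0.12 in 18 other cells). Late level and S-phase level correlated at 0.22 and -0.18 with total counts in these 46 cells.

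By gene, 39 of 40 members had a negative coefficient with the S-phase level in these 46 cells, and 18 were at -0.5 or below. Of all 11511 genes 48.7% were negative and 0.426% were at -0.5 or below. The 46 cells were picked by how many of these same members they held. The strongest were Cenpf (-0.79), Kif20a (-0.77), Cdc20 (-0.71), Tpx2 (-0.70) and Cenpa (-0.68). The weakest were Ttk (0.08), Top2a (-0.10), Aurkb (-0.11) and Prc1 (-0.20). Top2a, Aurkb and Prc1 were also among the members nearest the early set, whereas 3 of the 5 strongest (Kif20a, Cdc20 and Cenpa) belong to the late set.

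**Figure D5:**
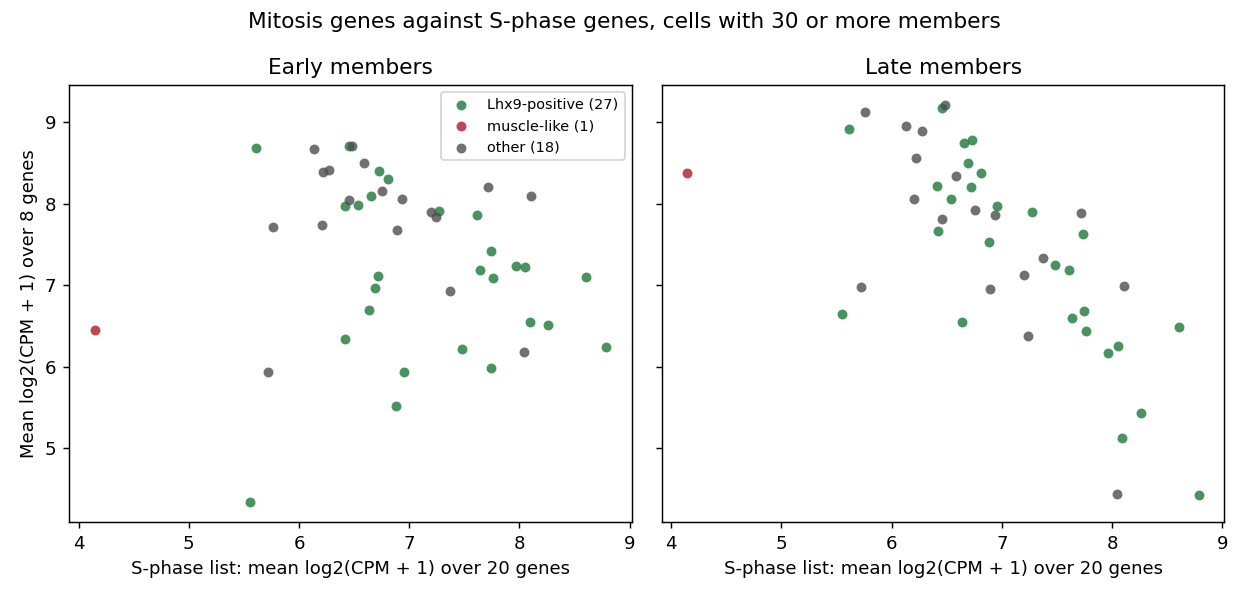
Mean log2(CPM + 1) of the 8 early members (left) and the 8 late members (right) against that of 20 S-phase genes (x axis) in the 46 cells with 30 or more mitosis genes detected: 27 Lhx9-positive, 1 muscle-like and 18 other. The late members decline with the S-phase level (Spearman -0.71), and the early members decline less (-0.29). The highest late level, 9.21, lies at an S-phase level of 6.48, and the lowest, 4.43, at 8.79.

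Other cell cycle lists were read by the same rule, beside the shares of all genes given above. Of the 20 S-phase genes, 0 were 2-fold higher or lower in Lhx9-positive than in other cells, and 15 were lower and 0 higher in muscle-like than in other cells, with a median log2 ratio of -1.29. The S-phase level averaged 7.06 ± 0.99 in Lhx9-positive cells, 5.07 ± 0.92 in muscle-like cells and 6.88 ± 0.85 in other cells. Rrm2 was among the lower genes, at 15.1 ± 16.3 CPM in muscle-like cells and 314 ± 312 CPM in other cells (log2 ratio -4.29), and Mcm2 was not, at 258 ± 131 CPM in muscle-like cells and 301 ± 204 CPM in other cells (log2 ratio -0.22). The corresponding median log2 ratio of the 40 mitosis genes was -1.91, and the difference between the lists was not tested.

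Of 35 further G2 and mitosis genes, 0 passed 2-fold in Lhx9-positive over other cells, and 28 were lower and 0 higher in muscle-like than in other cells (median log2 ratio -1.76), 34 of them without the muscle-like cell richest in members. Cks1b, Cks2, Hmgb2, Zwint and Spc24 were the most abundant of these per kilobase. Spc24, a partner of Ndc80 and Nuf2, stood at 19.2 ± 23.1 CPM in muscle-like cells and 182 ± 121 CPM in other cells (log2 ratio -3.18). Zwint, also a kinetochore gene, stood at 581 ± 231 CPM in muscle-like cells and 634 ± 215 CPM in other cells (log2 ratio -0.13). Spc24 thus differed widely and Zwint hardly did. Without the muscle-like cell richest in members their log2 ratios were -3.21 and -0.13. Among the kinetochore members of the 40, Cenpa had the smallest difference (-0.26), but it stood at -1.27 without that cell. The level of the 35 further genes had a Spearman correlation of 0.96 with that of the 40.

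Of 11 cyclins, kinases and inhibitors of G1, of which 9 passed the filter, 3 were at least 2-fold lower in muscle-like than in other cells. These were Ccnd1, Ccne1 and Ccne2, of which Ccnd1 and Ccne2 are named after their values were seen. The most abundant per kilobase were Cdk4, Cdkn1c, Ccnd3, Ccne1 and Ccnd2. Cdk4, the kinase of D-type cyclins, and the inhibitor Cdkn1c (p57) were detected in all 74 cells, with log2 ratios of muscle-like over other cells of -0.74 and -0.71. Ccnd3 had a ratio of 0.15 and Ccne1 of -4.08. In Lhx9-positive over other cells 1 gene passed 2-fold, the cyclin D1 gene Ccnd1. It averaged 159 ± 138 CPM in Lhx9-positive cells and 51.8 ± 64.6 CPM in other cells (log2 ratio 1.60).

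Among the 11395 other genes with a symbol that passed the filter, the 10 whose levels over 74 cells were most like that of the mitosis list were Cks2 (Spearman 0.92), Ckap2l (0.90), Spc25 (0.90), Hmgb2 (0.89), Ncapg (0.88), Espl1 (0.88), Shcbp1 (0.87), Melk (0.86), Pimreg (0.86) and Smc4 (0.84). Of these 7 belonged to the list of further G2 and mitosis genes, and Ncapg, Shcbp1 and Pimreg did not. Hmgb2 was detected in all 74 cells at 729 ± 446 CPM, so likeness to the list was not limited to genes that drop to 0.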

How the data were processed

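Polyadenylated RNA of 74 single cells was amplified with SMARTSeq V4 and made into Nextera XT libraries, per the labels. The authors deposited 1 table of estimated counts, which are whole numbers not scaled for depth or length. The submitters' processing notes name kallisto, with no version, and the human build hg38, whereas all 30323 identifiers in the table are mouse Ensembl identifiers. How transcripts became whole gene counts was not given in the sources used here. Of the identifiers, 29857 matched a symbol, and those without one held 0.357% of counts.

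Total counts of 216177 to 2618538 set the precision, and intervals cover the counting of cells only, since reads without molecular identifiers are not independent molecules. No cell was left out and no pair of cells had identical values. Cells had been sorted one by one and doublets were not searched for, so they are not excluded. Counts were scaled to CPM and taken as log2(CPM + 1). Detection meant 5 or more counts. Genes were compared between states by a rule of size, 2-fold in (mean CPM + 1), over the 11511 genes detected in at least 10% of cells, because 1 sample allows no test. Positions and lengths come from GENCODE M21 (GRCm38), and promoters from RefSeq (GRCm38.p6). The members, states, role groups, early and late sets and other lists were chosen with earlier results of these data known. Full values were given for the most and least often detected member of each role group and the 3 members of largest ratio in each direction and contrast. Outside the 40, the text names marker genes, the 5 genes of each list most abundant per kilobase and the 10 most like the list level. Alternatives changed the detection count, pseudocount, scaling (scran size factors), depth (thinned counts), state thresholds, gene filter and mean. Only the rule of size was run on simulated cells, with planted differences that were absent or larger than 2-fold. That run does not cover genes absent in some cells and high in others, or a mean carried by 1 cell. The software was scran 1.30.0 in R 4.3.3, and pandas 2.3.3, numpy 2.4.6, SciPy 1.17.1 and matplotlib 3.10.9 in Python 3.11.15.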

Additional observations from a re-analysis of the deposited data

How the results depend on the processing

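The share of cells with 20 or more members was 68.9% to 81.1% over 3 alternatives, against 74.3%. The difference of list level between Lhx9-positive and other cells, 0.97, ran from 0.46 (10 CPM added) to 1.26 (Actc1 threshold of 10000 CPM) over 8 alternatives. That between muscle-like and other cells, -2.62, ran from -3.19 (without the muscle-like cell richest in members) to -1.62 (10 CPM added) over 9. The number of members at least 2-fold lower in muscle-like cells, 36, ran from 25 (Actc1 threshold of 10000 CPM) to 39 (without the muscle-like cell richest in members). Some of the alternatives counted could not move a result. With no Lhx9 count between 2 and 15, a threshold of 10 counts left every state as it was. So did calling cells past both thresholds Lhx9-positive, since no cell passed both. All 40 members passed the gene filter, so dropping it could not change the 2-fold numbers. Medians in place of means gave 2 members higher in Lhx9-positive cells, Kif23 and Spag5, in place of 0; the other alternatives gave 0. Scran size factors moved the median log2 ratio of all genes in muscle-like over other cells to -0.13, against -0.18, and that of the members to -1.83, against -1.91. The early and late levels correlated at 0.89 to 0.90. No paired analysis was possible because the cells form 1 labelled group. With 9 muscle-like cells, a share of 2 in 9 has an interval of 2.81% to 60.0%, so shares in that state are imprecise. Differences between embryos and between states cannot be told apart.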
